A study of Mus musculus with 24 samples.

Results

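Blood growth factors of the fetal liver and their receptors were followed in 24 RNA-seq libraries of E12.5 mouse liver. The set comprises 6 ligands (*Kitl*, *Cxcl12*, *Thpo*, *Epo*, *Il7* and *Angptl2*) and 3 receptors (*Kit*, *Cxcr4* and *Epor*). They were taken by gene name, with earlier results of these data known, and are 9 of the 25361 genes in the table. The question was which fraction of the liver holds the transcripts of each ligand and receptor, and whether deletion of a chromatin remodeler gene in endothelial cells went with a change in them.

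Livers were split with beads into CD146+ cells, called LSECs (liver sinusoidal endothelial cells) in the study, and the remaining non-EC cells. CD146 is an adhesion molecule encoded by *Mcam* that endothelial cells carry, and pericytes and other mesenchymal cells can carry it too. Each fraction had 4 genotypes with 3 replicates each, and the study's methods describe single embryos. CHD4 and BRG1 (the product of *Smarca4*) are ATP-dependent chromatin remodelers.

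Controls (Ctrl) were Cre-negative and, by the cross, carried at least 1 floxed allele of both *Brg1* and *Chd4*. *Chd4-ECko* embryos were *Chd4* fl/fl and *Brg1* fl/+ with *VE-cadherin-Cre*+, *Brg1-ECko* embryos were *Chd4* fl/+ and *Brg1* fl/fl with the same Cre, and *Brg1/Chd4-ECdko* embryos were fl/fl for both genes with that Cre. The labels write these names with a capital KO or DKO. VE-cadherin-Cre is driven from an endothelial promoter and is also active in some blood cells, and the single mutants are heterozygous for the other floxed gene. Red cells were lysed, and all cells were digested in the presence of transcription inhibitors. Levels are TPM, a unit of transcript abundance in which the reads of a gene are corrected for its length and every library is scaled to 1 shared total. The reads behind a TPM value are therefore unknown.

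Endothelial markers summed to 914 to 1882 TPM in LSEC libraries and to 29.8 to 65.6 TPM in non-EC libraries. *Cdh5*, the gene for VE-cadherin, was at 194 to 368 TPM in LSECs and 3.33 to 13.4 TPM in non-EC cells. Stellate and mesenchymal markers also collected in LSECs, with sums of 771 to 1278 against 15.8 to 57.3 TPM for 11 of the 12 listed genes, and the pericyte receptor gene *Pdgfrb* was at 30.4 to 61.3 against 1.92 to 5.03 TPM. Hepatoblast markers summed to 3605 to 30685 TPM in LSECs and 18813 to 41549 TPM in non-EC cells, and the highest LSEC value, 30685, belonged to *Brg1-ECko* replicate 1 (the next was 8730). *Afp*, the fetal hepatoblast gene for alpha-fetoprotein, was at 1267 to 12314 TPM in LSECs and 7808 to 16602 TPM in non-EC cells. *Reln*, the 12th listed gene, was at 17.8 to 95.3 TPM in LSECs and 32.2 to 107 TPM in non-EC cells, where it made 58.9% to 76.2% of the list's sum, so sums below are given without it (chosen after seeing the data). Myeloid markers summed to 480 to 1116 TPM in LSECs and 334 to 700 TPM in non-EC cells. Of 10 such markers 5 were called higher and 1 lower in LSECs, against 19.2% and 9.84% of all genes. The LSEC fraction is thus endothelial by its markers but also holds mesenchymal, myeloid and hepatoblast transcripts. Mitochondrial genes took 13.9% to 31.5% of the TPM of LSEC libraries and 2.33% to 7.69% of non-EC libraries. In LSECs *Chd4* was at 246 to 285 TPM in Ctrl, 168 to 252 TPM in *Chd4-ECko* and 242 to 256 TPM in *Brg1/Chd4-ECdko*, and *Smarca4* was at 134 to 161 TPM in Ctrl and 111 to 157 TPM in *Brg1-ECko*. Gene-level values do not separate the floxed exons, so they do not check the deletion, and genotypes are as labelled.

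The fetal liver is the main site of blood formation at this age, and its stromal, endothelial and epithelial cells make factors that blood cells depend on. Stem cell factor, the product of *Kitl*, acts through the tyrosine kinase KIT on stem cells, progenitors, early red cell precursors and mast cells. The chemokine CXCL12 holds stem and progenitor cells in place through CXCR4, and ACKR3 removes CXCL12 from its surroundings. Thrombopoietin (*Thpo*) acts on megakaryocytes and stem cells, and erythropoietin (*Epo*) acts through EPOR on red cell precursors. Interleukin 7 (*Il7*) supports lymphoid cells, and angiopoietin-like 2 (*Angptl2*) is a secreted protein that supports stem cells in culture and can bind the receptor PIRB. EPOR signals through JAK2 and STAT5.

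On GRCm39 *Kitl* (ENSMUSG00000019966) lies at chr10:99851492-99936278 on the plus strand, *Cxcl12* (ENSMUSG00000061353) at chr6:117144945-117158328 on the plus strand and *Angptl2* (ENSMUSG00000004105) at chr2:33105946-33138252 on the plus strand. The minus strand holds *Thpo* (ENSMUSG00000022847) at chr16:20543204-20553379, *Epo* (ENSMUSG00000029711) at chr5:137481282-137531772 and *Il7* (ENSMUSG00000040329) at chr3:7635054-7678825. Of the receptors, *Kit* (ENSMUSG00000005672) lies at chr5:75735576-75817404 on the plus strand, *Cxcr4* (ENSMUSG00000045382) at chr1:128515936-128520044 and *Epor* (ENSMUSG00000006235) at chr9:21870192-21874879, both on the minus strand.

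Promoter sequence was taken from RefSeq (GRCm38.p6 table) and its position from the single exact match of each window on GRCm39. Of the 9 members, 8 had an entry. The 250 bases before each RefSeq start were searched on both strands for GATA words (GATA with an A or T before it and an A or G after it), which GATA factors of blood cells can bind, and for hypoxia response core words (CGTG with an A or G before it), which hypoxia-inducible factors can bind. Below are a ligand gene and a pair of receptor genes with called fraction differences, and *Epo*, the classical oxygen-regulated gene of the set. Capitals mark GATA words and hypoxia response core words, bases that fall in annotated exons are left out, and each sequence runs 5′ to 3′ on the gene's own strand. The *Cxcl12* stretch (chr6:117145246-117145495, plus strand) lies inside the gene model but in no exon, and the *Epo* stretch (chr5:137484115-137484328, minus strand) is intronic in the annotated gene model. The *Kit* stretch (chr5:75735397-75735575, plus strand) and the *Epor* stretch (chr9:21874880-21875122, minus strand) lie just before their gene models.
Cxcl12: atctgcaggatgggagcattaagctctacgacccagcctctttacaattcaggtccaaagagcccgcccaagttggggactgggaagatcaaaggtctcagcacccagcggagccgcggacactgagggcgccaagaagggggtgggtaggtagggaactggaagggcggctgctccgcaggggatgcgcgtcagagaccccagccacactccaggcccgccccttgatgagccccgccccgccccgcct
Epo: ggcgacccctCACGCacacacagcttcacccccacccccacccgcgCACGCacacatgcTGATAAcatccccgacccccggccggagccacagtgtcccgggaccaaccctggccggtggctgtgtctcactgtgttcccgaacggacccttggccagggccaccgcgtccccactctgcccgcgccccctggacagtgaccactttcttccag
Kit: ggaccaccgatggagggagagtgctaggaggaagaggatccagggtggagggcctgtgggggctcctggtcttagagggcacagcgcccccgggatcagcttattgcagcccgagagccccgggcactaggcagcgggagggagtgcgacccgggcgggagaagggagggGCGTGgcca
Epor: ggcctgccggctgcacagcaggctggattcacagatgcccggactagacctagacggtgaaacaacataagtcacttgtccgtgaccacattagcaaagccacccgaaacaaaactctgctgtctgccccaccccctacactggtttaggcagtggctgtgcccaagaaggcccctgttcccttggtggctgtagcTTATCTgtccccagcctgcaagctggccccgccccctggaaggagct

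The *Epor* window held 1 GATA word at 54 to 49 bases before the start, and the *Epo* window held 1 at 191 to 186 bases. GATA words were thus found in 2 of 8 members, and 26.5% of 32851 promoter windows of the same length hold one. Hypoxia response core words were found in 4 of 8 members (*Epo*, *Kit*, *Kitl* and *Cxcr4*), against 38.6% of all windows. In *Epo* they lay 240 to 236 and 204 to 200 bases before the start. The word CACCC, which some red cell factors bind, was found in 7 of 8 members (all but *Kitl*, and in 52% of windows) and TATAAA in 2 (*Kitl* and *Cxcr4*, and in 12.4% of windows). The *Cxcl12* window held neither a GATA word nor a hypoxia response core word. These matches describe letters in the windows and no binding was measured.

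*Cxcl12* and *Angptl2* transcripts were found mainly in LSECs, and *Kit*, *Epor*, *Thpo* and *Epo* transcripts mainly in non-EC cells. *Angptl2* was 7.46-fold and *Cxcl12* 3.18-fold higher in LSECs by mean TPM. *Epor* was 5.62-fold, *Kit* 4.23-fold, *Thpo* 3.81-fold and *Epo* 3.35-fold higher in non-EC cells. *Kitl* and *Cxcr4* were present in both fractions and differed by 1.57-fold and 1.6-fold. *Il7* was near the lower end of what the files list in every library.

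limma was fitted to log2(TPM + 1), on which the change of a gene with low values comes out too small, and genes entered if 3 or more libraries reached 1 TPM. A gene is called when its log2 fold change exceeds 1 in size and its Benjamini-Hochberg adjusted p is under 0.05. Of the 9 members, 8 entered the test and *Il7* did not. Over the 4 genotypes 6 of the 8 were called between the fractions, against 29% of all 13775 genes tested. The adjusted p alone passed for 8 of 8 members, against 82.6% of all genes, so that passing it sets no member apart. In bulk samples, fewer cells of a type and less RNA per cell cannot be told apart, which holds for every difference given here.

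**Figure D1:**
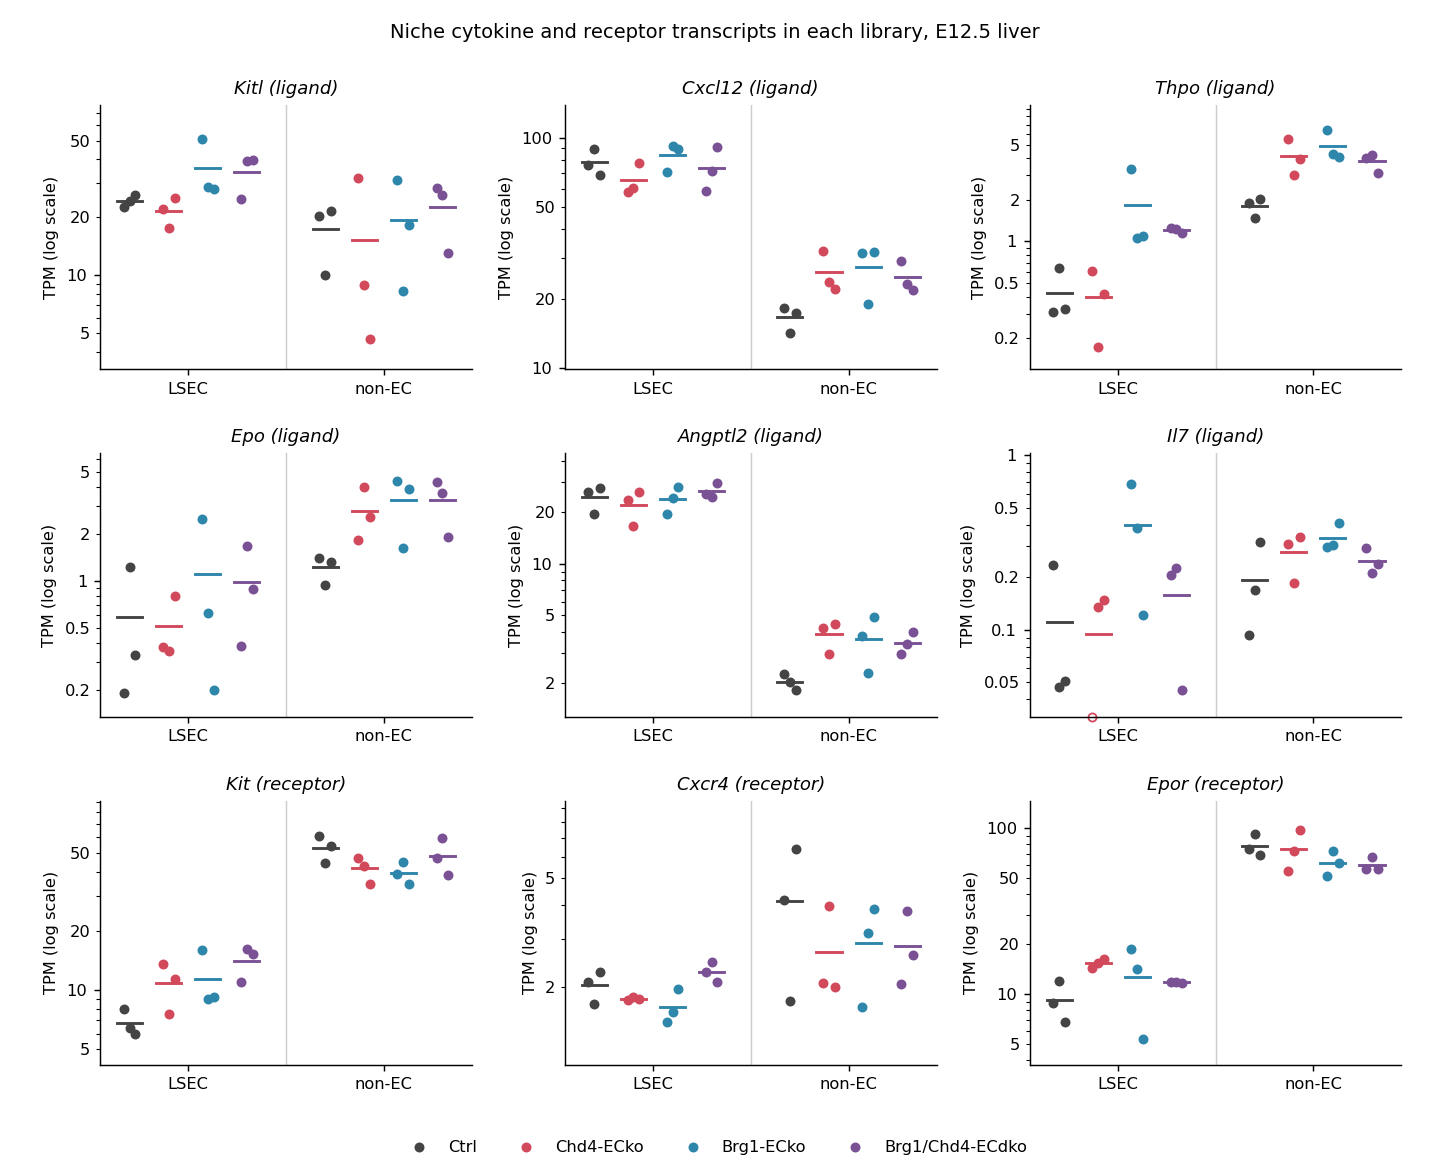
TPM (log axis) of each of the 9 members in LSEC and non-EC libraries, with 1 point per library, bars at the group means of 3 libraries and a colour per genotype. *Cxcl12* and *Angptl2* libraries lie higher in LSECs and *Kit* and *Epor* libraries higher in non-EC cells without overlap, and the open circle at the foot of the *Il7* panel is a library listed at 0.

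*Cxcl12* had the highest level of the 6 ligands in LSECs. LSEC replicates 1, 2 and 3 were at 76.2, 89.3 and 69.1 TPM in Ctrl, at 70.8, 92.2 and 89.1 TPM in *Brg1-ECko*, at 58.2, 60.3 and 77.5 TPM in *Chd4-ECko* and at 58.9, 71.6 and 91.5 TPM in *Brg1/Chd4-ECdko*. In non-EC cells they were at 18.3, 14.2 and 17.4 TPM in Ctrl, at 31.5, 18.9 and 31.9 TPM in *Brg1-ECko*, at 32.3, 23.7 and 22.2 TPM in *Chd4-ECko* and at 29.2, 23.3 and 21.8 TPM in *Brg1/Chd4-ECdko*. The lowest LSEC library was above the highest non-EC library, and 12 of 12 LSEC and non-EC pairs of the same number had the higher value in LSECs. The log2 fold change was 1.65 ± 0.10 (SE), with a limma adjusted p of 2.09e-12, and in Ctrl alone it was 2.17 ± 0.20. Group means fell into 3 steps whose libraries did not overlap, namely all LSEC groups, the 3 mutant non-EC groups, and Ctrl non-EC cells.

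*Angptl2* had the steepest LSEC excess of the set. Its LSEC libraries were at 26.2, 19.4 and 27.8 TPM in Ctrl, 19.5, 24.2 and 28.2 TPM in *Brg1-ECko*, 23.4, 16.7 and 26.2 TPM in *Chd4-ECko* and at 25.4, 24.5 and 29.4 TPM in *Brg1/Chd4-ECdko*. Its non-EC libraries were at 2.26, 2.04 and 1.82 TPM in Ctrl, 3.77, 2.30 and 4.86 TPM in *Brg1-ECko*, 4.20, 2.96 and 4.43 TPM in *Chd4-ECko* and at 2.96, 3.40 and 3.98 TPM in *Brg1/Chd4-ECdko*. The fractions did not overlap, the 12 pairs all ran the same way, and the steps were those seen for *Cxcl12*. The log2 fold change was 2.59 ± 0.10 (limma adjusted p = 1.40e-15), and 3.05 ± 0.21 in Ctrl alone. Libraries that do not overlap between the fractions were seen for 22.4% of all genes with LSECs higher and for 15.3% with LSECs lower.

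*Cxcl12* and *Angptl2* had the same distribution over the fractions as both endothelial and mesenchymal markers. Of the marker lists, 10 of 10 endothelial and 11 of 12 stellate and mesenchymal genes were called higher in LSECs, against 19.2% of all genes. The level of these ligands per cell type therefore cannot be read from the fraction difference. For each 1000 TPM of summed mesenchymal markers without *Reln*, *Angptl2* was at 24.2 ± 3.25 TPM in LSECs and 101 ± 23.9 TPM in non-EC cells (SD, n = 12). *Cxcl12* was at 75.3 ± 9.42 TPM in LSECs and 743 ± 140 TPM in non-EC cells on the same measure. With *Reln* in the sum the non-EC values were 32.4 ± 7.14 TPM for *Angptl2* and 237 ± 28.1 TPM for *Cxcl12*. For each 1000 TPM of endothelial markers, *Cxcl12* was at 51.6 ± 14.2 and 512 ± 138 TPM and *Angptl2* at 16.5 ± 3.75 and 70.6 ± 24.5 TPM. These quotients were chosen after seeing the data, and the part of either cell type in the difference was not tested.

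*Kitl* was read at overlapping levels in both fractions and was the least even member in non-EC cells. LSEC libraries were at 22.6, 24.3 and 26.2 TPM in Ctrl, 50.9, 28.8 and 28.1 TPM in *Brg1-ECko*, 22.2, 17.6 and 25.1 TPM in *Chd4-ECko* and at 24.9, 39.3 and 39.5 TPM in *Brg1/Chd4-ECdko*. Non-EC libraries were at 20.4, 10.04 and 21.6 TPM in Ctrl, 31.4, 8.24 and 18.3 TPM in *Brg1-ECko*, 31.9, 8.86 and 4.66 TPM in *Chd4-ECko* and at 28.3, 26.1 and 13.1 TPM in *Brg1/Chd4-ECdko*. The fractions overlapped widely, and in non-EC *Chd4-ECko* the SD of 14.7 TPM was close to the mean of 15.2 TPM. LSECs were higher in 10 of 12 pairs, and the log2 fold change was 0.76 ± 0.24 with a limma adjusted p of 0.00729, under the fold threshold. Without mitochondrial genes in the total it was 1.01 (limma adjusted p = 0.000926) and called. In Ctrl alone it was 0.53 ± 0.49 (limma adjusted p = 0.344, and 0.20 without non-EC Ctrl replicate 2), although the 3 LSEC libraries lay just above the 3 non-EC libraries. No neighbours in the order of the 8 *Kitl* group means were free of overlap. For each 1000 TPM of hepatoblast markers *Kitl* was at 4.51 ± 1.81 TPM in LSECs and 0.655 ± 0.325 TPM in non-EC cells (SD, n = 12). For each 1000 TPM of endothelial markers it was at 20.9 ± 12.1 and 395 ± 197 TPM.

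*Thpo* was low, and higher in non-EC cells. In LSECs it was at 0.311, 0.647 and 0.323 TPM in Ctrl, 3.32, 1.06 and 1.10 TPM in *Brg1-ECko*, 0.614, 0.172 and 0.415 TPM in *Chd4-ECko* and at 1.25, 1.22 and 1.15 TPM in *Brg1/Chd4-ECdko*. In non-EC cells it was at 1.89, 1.47 and 2.01 TPM in Ctrl, 6.42, 4.32 and 4.05 TPM in *Brg1-ECko*, 5.52, 3.05 and 3.95 TPM in *Chd4-ECko* and at 3.99, 4.24 and 3.14 TPM in *Brg1/Chd4-ECdko*. Non-EC cells were higher in 12 of 12 pairs, and the 3.32 TPM of *Brg1-ECko* replicate 1, the LSEC library with the most hepatoblast transcripts, was the one LSEC value above all Ctrl non-EC values. The log2 fold change was -1.27 ± 0.12 (limma adjusted p = 2.42e-09). In Ctrl alone it was -0.97 ± 0.24 (limma adjusted p = 0.00119), short of the fold threshold on this scale, while mean TPM differed by 4.20-fold.

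*Epo* was also low and higher in non-EC cells. LSEC libraries were at 0.191, 1.22 and 0.331 TPM in Ctrl, 2.47, 0.620 and 0.198 TPM in *Brg1-ECko*, 0.378, 0.352 and 0.797 TPM in *Chd4-ECko* and at 0.383, 1.67 and 0.880 TPM in *Brg1/Chd4-ECdko*. Non-EC libraries were at 1.40, 0.936 and 1.31 TPM in Ctrl, 4.37, 1.61 and 3.88 TPM in *Brg1-ECko*, 1.82, 3.99 and 2.57 TPM in *Chd4-ECko* and at 4.32, 3.66 and 1.90 TPM in *Brg1/Chd4-ECdko*. The fractions overlapped, with non-EC cells higher in 11 of 12 pairs. The log2 fold change of -1.02 ± 0.18 (limma adjusted p = 2.38e-05) lay next to the threshold of 1, and in Ctrl alone it was -0.54 ± 0.36 (limma adjusted p = 0.194). Without mitochondrial genes in the total the difference over the 4 genotypes was -0.95 and no longer called, and it was also under the fold threshold in 10 of 24 fits that left out 1 library.

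*Thpo* and *Epo* were lower in LSECs, as were the hepatoblast markers, of which 10 of 10 were called lower there, against 9.84% of all genes. For each 1000 TPM of summed hepatoblast markers *Thpo* was at 0.117 ± 0.0480 TPM in LSECs and 0.123 ± 0.0289 TPM in non-EC cells (SD, n = 12). *Epo* was at 0.104 ± 0.0637 and 0.0894 ± 0.0355 TPM on the same measure, with LSEC libraries from 0.0268 to 0.209 TPM. The part of hepatoblasts in these differences was not tested. The quotients overlapped widely between the fractions, while those of *Cxcl12* and *Angptl2* to mesenchymal markers without *Reln* did not overlap.

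**Figure D2:**
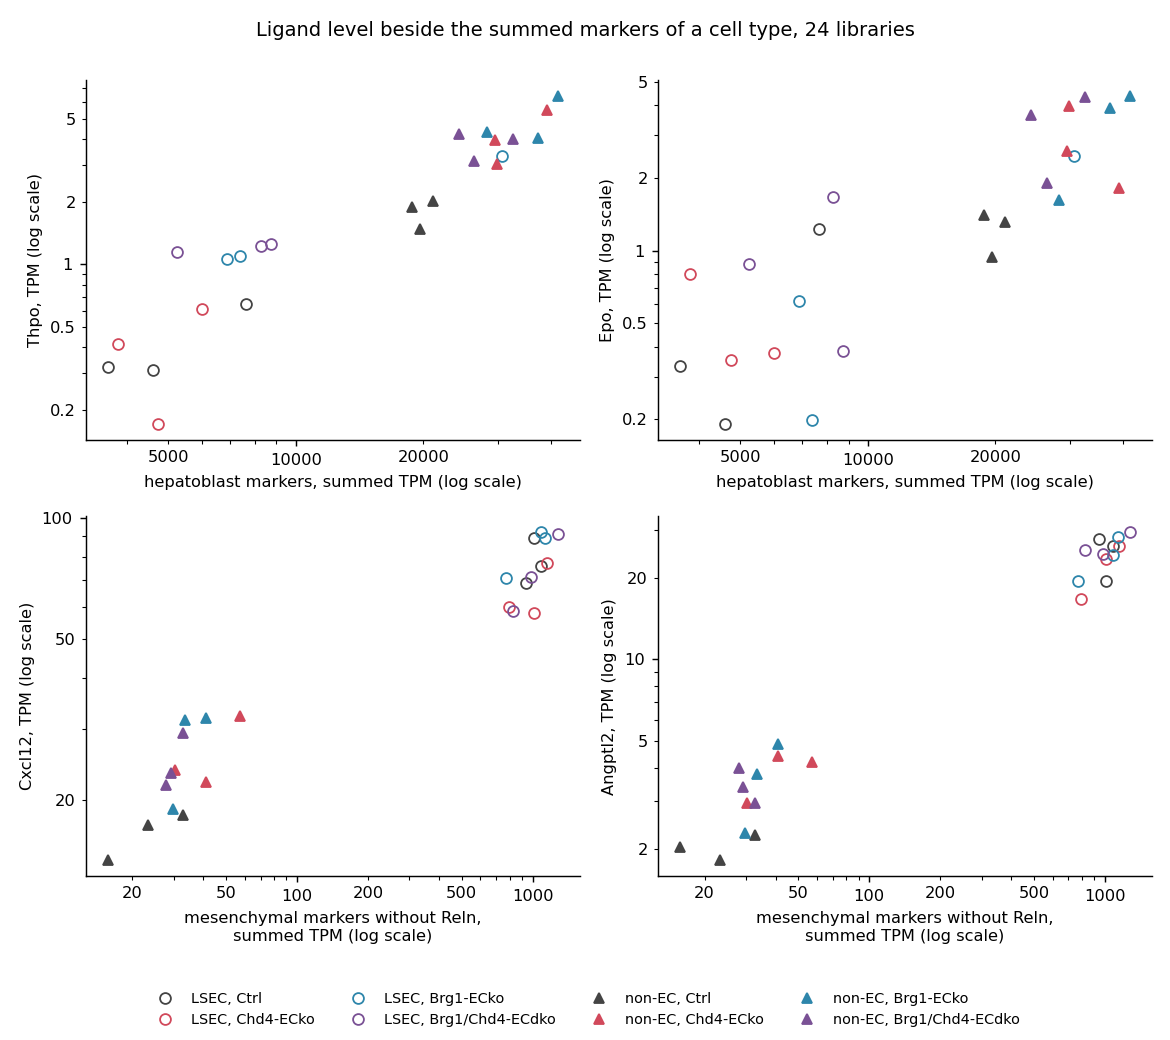
TPM of *Thpo* and *Epo* against summed hepatoblast markers and of *Cxcl12* and *Angptl2* against summed stellate and mesenchymal markers without *Reln*, on log axes, with 1 point per library (open circles LSEC, filled triangles non-EC). *Thpo* and *Epo* run along 1 band over both fractions, and the LSEC library at 30685 TPM of hepatoblast markers lies among the non-EC libraries.

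*Il7* did not pass the filter on low values. LSEC libraries ranged from 0 to 0.685 TPM (median 0.141) and non-EC libraries from 0.0927 to 0.409 TPM (median 0.296), and 1 LSEC library of *Chd4-ECko* was listed at 0. Lymphoid markers were as scarce, with sums of at most 1.96 TPM in any library. Non-EC cells were higher in 8 of 12 pairs. The mean difference of log2(TPM + 1) was -0.10, with p = 0.109 in an exact permutation test of the fraction labels within genotypes (160000 arrangements, two-sided). With a pseudocount of 0.1 TPM it was -0.51 and the exact p was 0.042, so that the reading depends on the pseudocount. The labels were permuted without regard to the same-numbered pairs, and *Il7* had no paired test.

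*Epor* and *Kit* had the largest excess in non-EC cells among the members. *Epor* in non-EC cells was at 74.7, 92.0 and 69.4 TPM in Ctrl, 51.3, 73.2 and 61.8 TPM in *Brg1-ECko*, 54.9, 73.1 and 97.3 TPM in *Chd4-ECko* and at 57.0, 67.0 and 56.9 TPM in *Brg1/Chd4-ECdko*. In LSECs it was at 8.80, 12.0 and 6.83 TPM in Ctrl, 18.7, 14.2 and 5.36 TPM in *Brg1-ECko*, 14.4, 15.5 and 16.4 TPM in *Chd4-ECko* and at 11.8, 11.8 and 11.7 TPM in *Brg1/Chd4-ECdko*. The fractions did not overlap, non-EC cells were higher in 12 of 12 pairs, and the log2 fold change was -2.44 ± 0.14 (limma adjusted p = 9.28e-13). Red cell markers were called lower in LSECs for 10 of 10 genes, against 9.84% of all genes. *Klf1*, a red cell transcription factor gene, was at 7.51 to 64.5 TPM in LSECs and 228 to 518 TPM in non-EC cells. For each 1000 TPM of summed red cell markers *Epor* was at 22.5 ± 10.1 TPM in LSECs and 22.6 ± 6.95 TPM in non-EC cells (SD, n = 12). The part of red cells in the difference was not tested.

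*Kit* showed the same direction. Its non-EC libraries were at 60.9, 44.1 and 54.2 TPM in Ctrl, 38.7, 44.6 and 34.5 TPM in *Brg1-ECko*, 46.8, 42.9 and 34.8 TPM in *Chd4-ECko* and at 47.2, 59.3 and 38.3 TPM in *Brg1/Chd4-ECdko*. Its LSEC libraries were at 8.01, 6.40 and 5.95 TPM in Ctrl, 15.95, 8.97 and 9.25 TPM in *Brg1-ECko*, 13.5, 7.56 and 11.4 TPM in *Chd4-ECko* and at 10.9, 16.1 and 15.3 TPM in *Brg1/Chd4-ECdko*. No LSEC library reached a non-EC library, and the log2 fold change was -2.03 ± 0.11 (limma adjusted p = 3.98e-13). In Ctrl alone the differences were -2.79 ± 0.22 for *Kit* and -2.99 ± 0.28 for *Epor*. Stem and progenitor markers went both ways, with 1 of 8 called higher and 3 of 8 lower in LSECs (*Mecom* at 5.23 to 17.4 against 0.140 to 1.24 TPM, *Myb* at 4.17 to 42.4 against 109 to 232 TPM). Megakaryocyte markers were called lower in LSECs for 6 of 6 genes (sums of 152 to 524 against 643 to 1660 TPM). Of all genes 19.2% were called higher and 9.84% lower. For each 1000 TPM of summed stem and progenitor markers *Kit* was at 81.7 ± 23.6 TPM in LSECs and 168 ± 17.3 TPM in non-EC cells (SD, n = 12). Mast cell markers, of another cell type that uses KIT, summed to 0.172 to 6.90 TPM in LSECs and 2.69 to 21.6 TPM in non-EC cells, with *Mcpt4* listed at 0 in 12 of 12 LSEC libraries and 11 of 12 non-EC libraries.

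*Cxcr4*, the receptor for CXCL12, was low in both fractions. It ranged from 1.48 to 2.46 TPM in LSECs (median 1.90) and from 1.68 to 6.38 TPM in non-EC cells (median 2.87). Ctrl non-EC replicates alone covered nearly that whole range, at 4.17, 1.77 and 6.38 TPM. Non-EC cells were higher in 11 of 12 pairs, and the log2 fold change was -0.42 ± 0.14 (limma adjusted p = 0.00785), under the fold threshold. It was -0.25 (limma adjusted p = 0.119) without mitochondrial genes in the total and -1.09 (limma adjusted p = 2.13e-08), and thereby called, under quantile normalization. The ligand gene *Cxcl12* was at 75.4 ± 12.8 TPM in LSECs, where *Cxcr4* was at 1.95 ± 0.293 TPM (SD, n = 12), both per length.

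**Figure D3:**
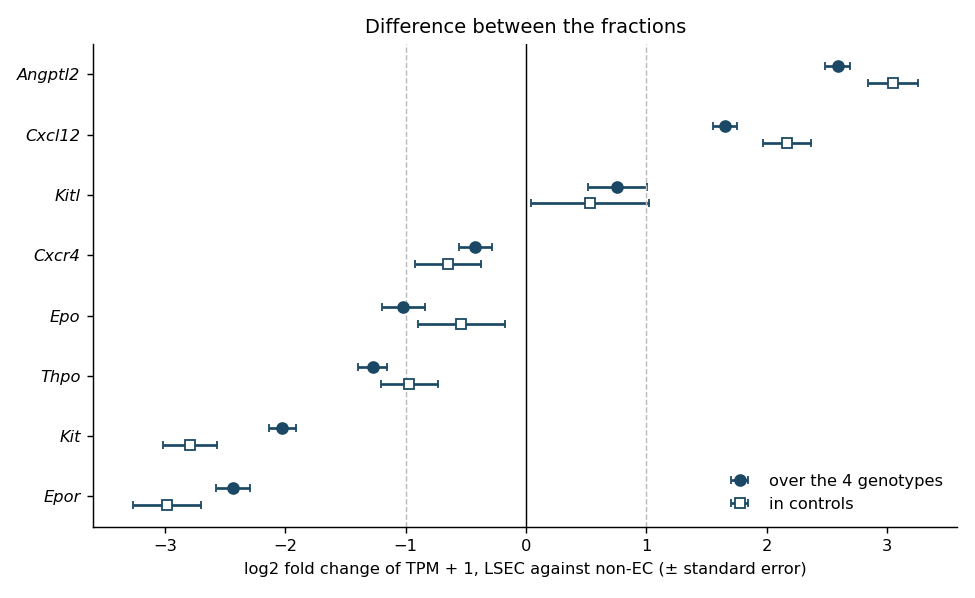
Log2 fold change of TPM + 1 in LSECs against non-EC cells (± SE, limma) of the 8 members tested, over the 4 genotypes (filled circles) and in controls alone (open squares), with dashed lines at a log2 fold change of 1 in either direction. *Angptl2* and *Cxcl12* lie above the upper line, *Epor* and *Kit* well below the lower line, and *Epo* (-1.02) next to it.

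Controls alone gave 4 member calls, 2 in each direction, against 32.7% of all genes called. These were *Angptl2*, *Cxcl12*, *Kit* and *Epor*. Libraries of the 2 control fractions did not overlap for 6 members, with LSECs higher for *Kitl*, *Cxcl12* and *Angptl2* and lower for *Thpo*, *Kit* and *Epor*, while such separation was seen for 34.9% of all genes with LSECs higher and 40.2% with LSECs lower. The contrast over the 4 genotypes includes these control libraries and is not independent of it.

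Other receptors for the same ligands differed in how far the fractions lay apart. *Ackr3*, the gene for the CXCL12 scavenger, was at 16.5 to 37.9 TPM in LSECs and 0.239 to 0.885 TPM in non-EC cells (log2 fold change 4.11, the highest of the receptor genes examined). It was called, and its libraries did not overlap between fractions. *Il7r*, a chain of the interleukin 7 receptor, was at 0.240 to 1.23 and 0.586 to 2.43 TPM, with a log2 fold change of -0.51 under the fold threshold. *Pirb* was at 1.25 to 3.32 and 1.15 to 2.93 TPM (log2 fold change 0.22, limma adjusted p = 0.113), and it belongs to a family of near-identical genes among which reads may be shared. By TPM *Cxcl12* and *Ackr3* were thus both read mainly in LSECs, and *Epo* and *Epor* mainly in non-EC cells, while *Kit* was read mainly in non-EC cells and *Kitl* in both fractions.

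A list of 81 other genes of these pathways held 80 genes in the table, and 72 passed the filter. LSECs were called higher for 17 and lower for 11 of them, against 19.2% and 9.84% of all genes, and their median log2 fold change was 0.22. The median of all genes was -0.00. *Csf2*, *Csf3*, *Il11*, *Il3*, *Il34*, *Il6*, *Lif* and *Tslp* did not pass the filter, and *Il3* was listed at 0 in every library.

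Among 14 other blood growth factors tested, 6 were called higher in LSECs and 2 lower (median log2 fold change 0.28), against 19.2% and 9.84% of all genes. *Ptn*, which encodes the heparin-binding factor pleiotrophin, had a log2 fold change of 5.28, with 574 to 1207 TPM in LSECs and 10.6 to 40.6 TPM in non-EC cells. *Igf1* (3.65), *Csf1* (2.11), the macrophage growth factor gene, and *Angptl7* (1.78) were also higher in LSECs. *Flt3l*, the FLT3 ligand gene, was called lower with a log2 fold change of -1.54, and was chosen after its value was seen.

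Of 12 other growth factor receptors, 2 were called higher in LSECs and 2 lower (median log2 fold change 0.24), against the same shares of all genes. *Il6st*, the signalling chain shared by receptors of the interleukin 6 family, changed by 2.53 and *Il11ra1* by 2.58, the latter with near-identical copies in the mouse genome. *Flt3* (-2.60), a receptor of early lymphoid and myeloid progenitors, and *Csf3r* (-1.19), the granulocyte growth factor receptor, were lower in LSECs.

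Signal transducers of JAK-STAT and KIT gave 0 higher and 2 lower calls among 13 genes tested in limma, with 4 higher and 8 lower by adjusted p alone, which 82.6% of all genes passed (median log2 fold change -0.27). *Stat5a* had a log2 fold change of -2.33 and *Stat5b* one of -1.20, and both transduce EPOR signals. *Jak1* (0.81) and *Lyn* (0.76) passed the adjusted p but not the fold threshold. Of 9 signal inhibitors 2 were called higher and 0 lower in limma, with 4 higher and 5 lower by adjusted p alone (median -0.27), and both lists stand against 19.2% of all genes called higher and 9.84% lower. Those called were *Socs3* (2.18) and *Socs2* (1.86), which encode feedback inhibitors of cytokine receptors, while *Socs1* (0.87) and the phosphatase gene *Ptpn6* (-0.75) were under the fold threshold.

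Of 5 targets of the EPO receptor tested, 3 were called lower in LSECs and 0 higher, with a median log2 fold change of -1.23, where 9.84% of all genes were called lower. *Erfe* (-1.85), a red cell hormone gene that acts on iron supply, *Tfrc* (-1.82), the transferrin receptor gene, and *Pim1* (-1.23), a kinase gene, were called, while *Podxl* stood at -0.28 and *Bcl2l1* at 0.15. Of 8 genes of oxygen sensing, which controls *Epo*, 3 were called higher in LSECs and 1 lower (median 0.52), against 19.2% and 9.84% of all genes. *Epas1*, the gene for the oxygen-regulated factor HIF2A, had a log2 fold change of 3.22, with 21.8 to 43.0 TPM in LSECs and 1.11 to 5.12 TPM in non-EC cells, where *Epo* was higher. *Hif1a* (1.18) and *Egln3* (1.14) were also higher, and *Hnf4a* (-2.06), a hepatocyte factor gene that is also on the hepatoblast marker list, was lower.

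Of 5 enzymes that release or cut the ligands, 3 were called higher in LSECs and 0 lower, with a median log2 fold change of 1.17, where 19.2% of all genes were called higher. *Dpp4* (2.58) encodes a peptidase that inactivates CXCL12. *Mmp14* (2.01) and *Mmp9* (1.17) encode matrix proteases, of which MMP9 can release soluble KIT ligand. The sheddase genes *Adam17* (0.45) and *Adam10* (0.23) were under the fold threshold. In controls alone *Mmp9* was not called either (0.45, limma adjusted p = 0.254).

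**Figure D4:**
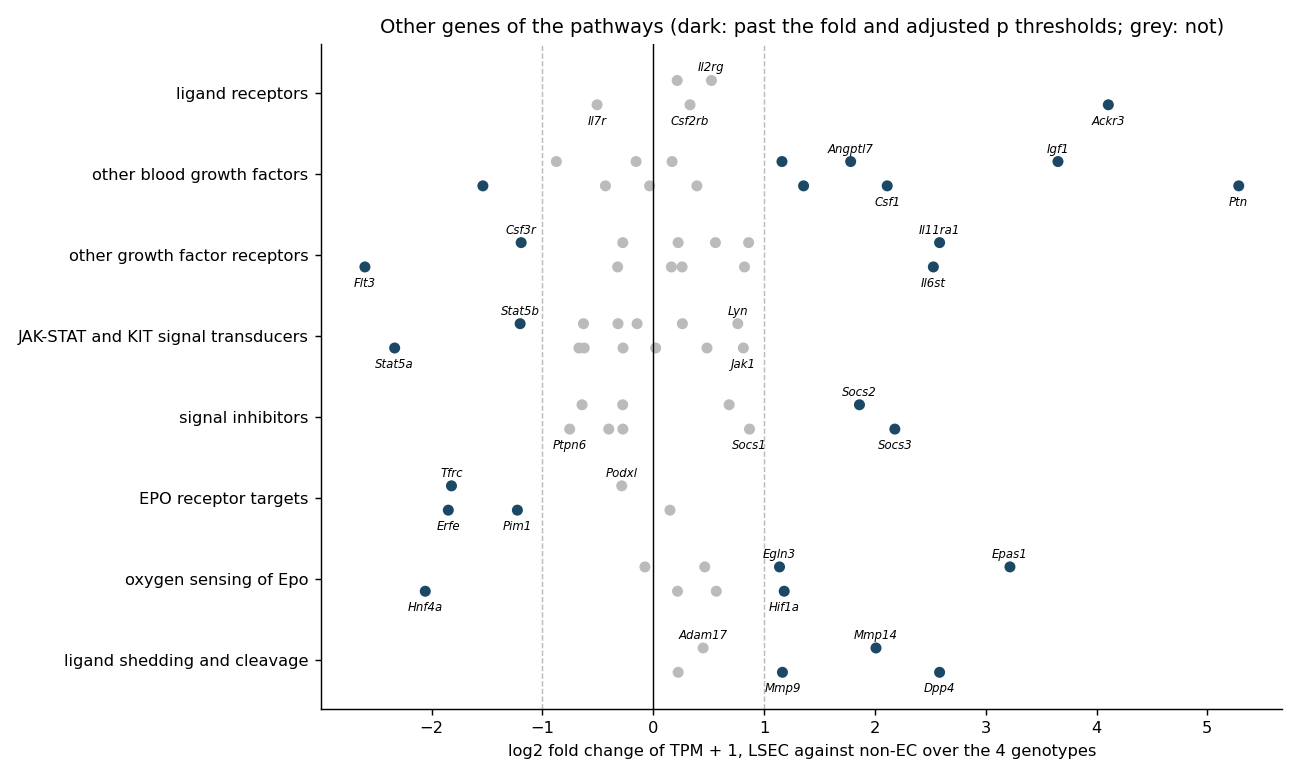
Log2 fold change of TPM + 1 in LSECs against non-EC cells of 70 of the 72 tested genes in the 8 pathway lists, 1 point per gene, with called genes dark and the 4 plotted genes of the largest change per list named. Shedding enzymes lie above 0, and *Ptn* (5.28) and *Ackr3* (4.11) lie farthest up.

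The size of the fraction difference varied between genotypes without a member passing the test of that variation. *Angptl2* was 12.0-fold higher in LSECs in Ctrl and 5.72-fold, 6.57-fold and 7.67-fold higher in *Chd4-ECko*, *Brg1-ECko* and the double mutant *Brg1/Chd4-ECdko*. *Cxcl12* was 4.71-fold higher in Ctrl and 2.51-fold, 3.06-fold and 2.99-fold higher in the mutants in the same order. *Kit* was 7.82-fold higher in non-EC cells in Ctrl and 3.84-fold, 3.45-fold and 3.42-fold higher in the mutants. *Epor* was 8.56-fold higher in non-EC cells of Ctrl and 4.87-fold, 4.87-fold and 5.12-fold higher in the mutants. *Cxcr4* was 2.02-fold higher in non-EC cells of Ctrl and 1.48-fold, 1.72-fold and 1.24-fold higher in the mutants. These 5 of the 8 members tested were less unequal in all 3 mutants by mean TPM, as were 42.8% of all genes, and every mutant is set against the same control libraries. The other ligands were not. *Epo* was 2.09-fold higher in non-EC cells in Ctrl and 5.49-fold, 3.00-fold and 3.37-fold higher in the mutants, and *Thpo* was 4.20-fold higher in Ctrl and 10.4-fold, 2.70-fold and 3.15-fold higher in the mutants. *Kitl* was 1.40-fold higher in LSECs in Ctrl and 1.43-fold, 1.86-fold and 1.54-fold higher in the mutants. The limma interaction of genotype and fraction called 0 of 8 members in each mutant, with unadjusted p under 0.05 for 4 members in *Chd4-ECko*, 1 member in *Brg1-ECko* and 2 members in *Brg1/Chd4-ECdko*, which 19.1%, 17.9% and 7.57% of all genes reached. By the call rule 0.69%, 0.639% and 0.0581% of all genes passed. The nearest was *Kit* in *Brg1-ECko*, with an interaction of 1.05 ± 0.32 on the log2 scale (limma adjusted p = 0.0983).

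In non-EC cells *Thpo*, *Epo*, *Cxcl12* and *Angptl2* stood higher in every mutant group than in Ctrl, and 1 of these differences was called. Each lowest mutant library was above the highest Ctrl library, so the 3 mutant groups did not overlap Ctrl for these 4 ligands. With each mutant taken alone, such separation with the mutant higher was seen for 15.8% of all genes in *Chd4-ECko*, for 21.9% in *Brg1-ECko* and for 16% in *Brg1/Chd4-ECdko*. The share of all genes separated in all 3 mutants at once was not computed. All 3 comparisons use the same 3 Ctrl libraries, so they are not independent of each other.

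*Thpo* rose from 1.79 ± 0.284 TPM in Ctrl non-EC cells to 4.93 ± 1.30 TPM in *Brg1-ECko* (SD, n = 3), a log2 fold change of 1.07 ± 0.21 with a limma adjusted p of 0.00802. It was the only member called among 8 in any genotype comparison, and 1.37% of all genes were called in *Brg1-ECko* non-EC cells. Without non-EC *Brg1-ECko* replicate 1 the log2 fold change was 0.90, and without non-EC Ctrl replicate 2 it was 0.99, and under quantile normalization it was 0.97, each under the fold threshold. In *Chd4-ECko* it was at 4.17 ± 1.25 TPM, a log2 fold change of 0.87 ± 0.21 (limma adjusted p = 0.0298, which 9.48% of all genes passed), and with these 2 groups alone in the model the adjusted p was 0.122. In *Brg1/Chd4-ECdko* it was at 3.79 ± 0.575 TPM, 0.78 ± 0.21 (limma adjusted p = 0.113). Between *Brg1/Chd4-ECdko* and *Chd4-ECko* non-EC cells limma called 0 of 8 members, with 0 members at an unadjusted p under 0.05 (21.8% of all genes) and 0% of all genes called.

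*Epo* in non-EC cells was at 1.22 ± 0.248 TPM in Ctrl, 2.79 ± 1.10 TPM in *Chd4-ECko*, 3.29 ± 1.47 TPM in *Brg1-ECko* and 3.29 ± 1.25 TPM in the double mutant *Brg1/Chd4-ECdko*. The log2 fold changes were 0.74, 0.89 and 0.91, with limma adjusted p of 0.123, 0.0904 and 0.227. *Cxcl12* was at 16.6 ± 2.16 TPM in Ctrl and at 26.1 ± 5.49, 27.4 ± 7.36 and 24.8 ± 3.93 TPM in the mutants in that order, with log2 fold changes of 0.61, 0.66 and 0.55 (limma adjusted p of 0.0785, 0.0655 and 0.300). *Angptl2* was at 2.04 ± 0.218 TPM in Ctrl and at 3.86 ± 0.790, 3.64 ± 1.29 and 3.45 ± 0.509 TPM in the mutants (log2 fold changes 0.67, 0.57 and 0.54, limma adjusted p of 0.0631, 0.101 and 0.300). None of these passed the test, and *Chd4-ECko* and *Brg1/Chd4-ECdko* non-EC cells had 0 of 8 members called, against 0.884% and 0.115% of all genes. At an unadjusted p under 0.05 limma gave 4 members in each of these mutants and 5 in *Brg1-ECko*, against 33.9% (*Chd4-ECko*), 11.7% (*Brg1/Chd4-ECdko*) and 28% (*Brg1-ECko*) of all genes.

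Hepatoblast markers summed to 18813 to 21044 TPM in Ctrl non-EC libraries and to 24320 to 41549 TPM in the 9 mutant libraries, and 4 of 10 were called higher in *Brg1-ECko* and 1 of 10 in *Chd4-ECko*, against 1.19% and 0.434% of all genes. By adjusted p alone 9 of 10 were higher in *Brg1-ECko* and 8 of 10 in *Chd4-ECko*, against 8.91% and 6.17% of all genes. In *Brg1/Chd4-ECdko* limma called 0 of 10, with 1 of 10 higher by adjusted p alone. Stellate and mesenchymal markers without *Reln* summed to 15.8 to 32.8 TPM in Ctrl and 27.9 to 57.3 TPM in mutants, and *Reln* was at 32.2 to 51.6 TPM in Ctrl and 55.1 to 107 TPM in mutants, with 0 of 10 called in limma (1 at an adjusted p under 0.05, in *Chd4-ECko*). For each 1000 TPM of hepatoblast markers *Thpo* was at 0.0904 ± 0.0137 TPM in Ctrl and 0.125 ± 0.0206, 0.139 ± 0.0260 and 0.139 ± 0.0311 TPM in the mutants in that order (SD, n = 3). *Epo* was at 0.0615 ± 0.0135 TPM in Ctrl and 0.0890 ± 0.0434, 0.0888 ± 0.0274 and 0.118 ± 0.0412 TPM on the same measure. For each 1000 TPM of mesenchymal markers without *Reln*, *Cxcl12* was at 734 ± 171 TPM in Ctrl and 628 ± 133, 786 ± 154 and 825 ± 60.7 TPM in the mutants. *Angptl2* was at 92.2 ± 32.6 TPM in Ctrl and 92.9 ± 17.7, 103 ± 22.4 and 117 ± 25.97 TPM in the mutants. The quotients of *Epo*, *Cxcl12* and *Angptl2* overlapped between Ctrl and the mutants, and those of *Thpo* in Ctrl lay below those of all 9 mutant libraries. The part of these markers in the differences was not tested.

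The receptors in non-EC cells ran level or lower in the mutants and none passed the test. *Kit* was at 53.1 ± 8.43 TPM in Ctrl and 41.5 ± 6.13, 39.3 ± 5.06 and 48.3 ± 10.6 TPM in the mutants (log2 fold changes -0.35, -0.42 and -0.14, limma adjusted p of 0.190, 0.148 and 0.898). *Epor* was at 78.7 ± 11.8 TPM in Ctrl and 75.1 ± 21.2, 62.1 ± 10.96 and 60.3 ± 5.78 TPM in the mutants (log2 fold changes -0.09, -0.34 and -0.37). Its *Brg1/Chd4-ECdko* libraries all lay below Ctrl, and the share of all genes that did so was not computed. *Cxcr4* had log2 fold changes of -0.40, -0.32 and -0.34, which were -0.083, -0.0022 and -0.015 without non-EC Ctrl replicate 3. *Kitl* had -0.51, 0.04 and 0.36, and its direction in both single mutants changed with 1 library left out. Beyond the members, the EPO receptor target *Tfrc* was lower in *Chd4-ECko* (log2 fold change -1.33, limma adjusted p = 0.0306) and *Brg1-ECko* (-1.16, limma adjusted p = 0.0382) non-EC cells, the 1 pathway list gene of 67 tested that was called in each, where 0.45% and 0.18% of all genes were called lower. No list gene was called lower in *Brg1-ECko* in any of the 6 fits that left out 1 library, nor in 5 of 6 such fits in *Chd4-ECko* (3 were without non-EC *Chd4-ECko* replicate 1) or with the *Chd4-ECko* and Ctrl groups alone in the model.

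Red cell markers in non-EC cells summed to 2117 to 7539 TPM in Ctrl, 2386 to 8042 TPM in *Chd4-ECko*, 1472 to 2856 TPM in *Brg1-ECko* and 2200 to 2977 TPM in *Brg1/Chd4-ECdko*. Of 10 red cell markers, 1 was called lower in *Brg1-ECko* and 0 in the other mutants, with median log2 fold changes of -0.07, -0.83 and -0.44 in *Chd4-ECko*, *Brg1-ECko* and the double mutant. Mast cell markers summed to 5.13 to 21.6 TPM in Ctrl and 2.69 to 8.40 TPM in the mutants, and 1 of 2 tested was called lower in *Chd4-ECko*. Their part in the values of *Epor*, *Kit* and *Tfrc* was not tested.

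In LSECs none of the 8 members was called in any of the 4 genotype comparisons, against 0.521% of all genes in *Chd4-ECko*, with 0.0149% in *Brg1-ECko*, 0.565% in *Brg1/Chd4-ECdko* and 0.0372% between *Brg1/Chd4-ECdko* and *Chd4-ECko*. At an unadjusted p under 0.05 limma gave 2 members in each, against 6.49%, 9.68%, 12.1% and 10.4% of all genes in the same order. *Cxcl12* means were 78.2 ± 10.3 TPM in Ctrl, 84.0 ± 11.6 TPM in *Brg1-ECko*, 65.3 ± 10.6 TPM in *Chd4-ECko* and 74.0 ± 16.4 TPM in *Brg1/Chd4-ECdko*, and the groups overlapped. *Angptl2* means lay between 22.1 and 26.4 TPM.

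*Kit* in LSECs was lowest in Ctrl, at 6.79 ± 1.08 TPM, and stood at 10.8 ± 3.02 TPM in *Chd4-ECko*, 11.4 ± 3.95 TPM in *Brg1-ECko* and 14.1 ± 2.78 TPM in the double mutant *Brg1/Chd4-ECdko*. Libraries of *Brg1-ECko* and *Brg1/Chd4-ECdko* did not overlap Ctrl. The log2 fold changes were 0.58, 0.63 and 0.95, each ± 0.24, with limma adjusted p of 0.648, 0.430 and 0.106. Without LSEC *Brg1-ECko* replicate 1 the value in that mutant was 0.39. The median of all genes in *Brg1/Chd4-ECdko* LSECs was itself 0.16 above Ctrl on this scale. With these 2 groups alone in the model the adjusted p of *Kit* in *Brg1/Chd4-ECdko* was 0.0137, with the fold still under the threshold. Of 7 stem and progenitor markers tested in LSECs, limma called 0 in any mutant, with 1 higher and 1 lower in *Brg1/Chd4-ECdko* by adjusted p alone. For each 1000 TPM of these summed markers *Kit* was at 50.8 ± 7.67 TPM in Ctrl (SD, n = 3). It was at 81.9 ± 21.3 TPM in *Chd4-ECko*, 92.1 ± 14.4 TPM in *Brg1-ECko* and 102 ± 11.3 TPM in *Brg1/Chd4-ECdko* on this measure. Mast cell markers summed to 0.172 to 0.337 TPM in Ctrl LSECs, 1.41 to 3.38 TPM in *Chd4-ECko*, 0.183 to 6.90 TPM in *Brg1-ECko* and 0.339 to 1.36 TPM in *Brg1/Chd4-ECdko*, and their part in the *Kit* values was not tested.

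Of the other members in LSECs, *Thpo*, *Kitl* and *Epor* each had a mutant group whose libraries all lay above Ctrl. *Thpo* was at 0.427 ± 0.190 TPM in Ctrl, 1.83 ± 1.30 TPM in *Brg1-ECko* and 1.20 ± 0.0526 TPM in *Brg1/Chd4-ECdko* (log2 fold changes 0.90 and 0.63, limma adjusted p of 0.333 and 0.363). Only libraries of these mutants reached 1 TPM in LSECs, so *Thpo* entered that fit through the groups in which it was high. Its separation from Ctrl is thus not independent of the filter. In *Brg1-ECko* it was 0.55 without replicate 1, the library with the most hepatoblast transcripts. *Kitl* was at 24.3 ± 1.82 TPM in Ctrl and 35.9 ± 12.9 TPM in *Brg1-ECko* (0.49, limma adjusted p = 0.515, and 0.22 without the same replicate 1), and *Epor* at 9.20 ± 2.59 TPM in Ctrl and 15.4 ± 1.01 TPM in *Chd4-ECko* (0.72 ± 0.31, limma adjusted p = 0.693). The median log2 fold change of 10 red cell markers in *Chd4-ECko* LSECs was 0.72, and limma called 0 of them. They summed to 485 to 1279 TPM against 328 to 1223 TPM in Ctrl, and their part in the *Epor* value was not tested. Separation from Ctrl with the mutant higher was seen for 8.7% of all genes in *Chd4-ECko*, for 10.9% in *Brg1-ECko* and for 20.8% in *Brg1/Chd4-ECdko*. The smallest p that 3 libraries against 3 can reach in an exact permutation test is 0.1, so that test could not pass for any member.

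**Figure D5:**
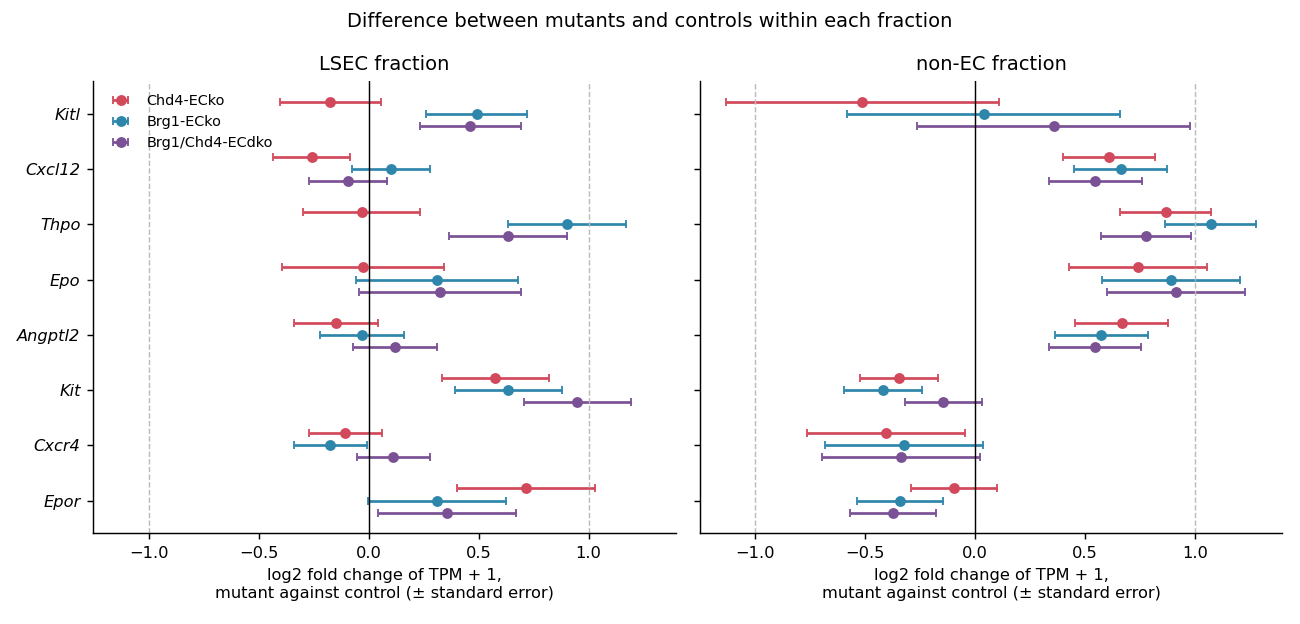
Log2 fold change of TPM + 1 against controls (± SE, limma) of the 8 tested members in each of the 3 mutants, with LSECs and non-EC cells in separate panels and dashed lines at a log2 fold change of 1 in either direction. *Thpo* in *Brg1-ECko* non-EC cells (1.07) is the one called value, and *Kit* in *Brg1/Chd4-ECdko* LSECs (0.95) was not called.

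Of the 71 pathway list genes tested in LSECs, *Chd4-ECko* had 3 called higher, and so had *Brg1/Chd4-ECdko*, with *Csf2rb* and *Mmp9* called in both, against 0.491% of all genes called higher in each. With 1 library left out the counts were 2 to 5 in *Chd4-ECko* (5 without LSEC *Chd4-ECko* replicate 1) and 0 to 3 in *Brg1/Chd4-ECdko*, 0 without its LSEC replicate 3 and 1 without LSEC Ctrl replicate 1. *Csf2rb*, a signalling chain shared by several cytokine receptors, was at 8.12 ± 2.12 TPM in Ctrl, 12.4 ± 1.19 TPM in *Brg1-ECko*, 21.9 ± 4.29 TPM in *Chd4-ECko* and 20.1 ± 2.05 TPM in *Brg1/Chd4-ECdko* LSECs. Its log2 fold changes were 1.34 in *Chd4-ECko* (limma adjusted p = 0.00345) and 1.24 in *Brg1/Chd4-ECdko* (limma adjusted p = 0.00741), and a near-identical neighbouring gene may share its reads. *Mmp9* rose in both as well (1.81 and 1.84, limma adjusted p of 0.0296 and 0.0234). *Ptpn6* rose in *Chd4-ECko* (1.17, limma adjusted p = 0.00337) and passed the adjusted p but not the fold threshold in *Brg1/Chd4-ECdko* (0.97, limma adjusted p = 0.0109). *Egln3*, an oxygen sensor gene, rose in *Brg1/Chd4-ECdko* (1.18, limma adjusted p = 0.0114). Myeloid markers summed to 487 to 615 TPM in Ctrl LSECs, 620 to 1116 TPM in *Chd4-ECko*, 480 to 763 TPM in *Brg1-ECko* and 566 to 871 TPM in *Brg1/Chd4-ECdko*. Their median log2 fold changes were 1.05, 0.60 and 0.70 in the mutants, with 2 of 10 called higher in *Chd4-ECko*, and their part in these differences was not tested.

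The genes whose levels ran most like a member over the 12 libraries of its higher fraction were found by Pearson's r of log2(TPM + 1), as a description over points that share genotypes and cell makeup. *Thpo* in non-EC cells ran with *Mmd2* (0.972), *Fads1* (0.966), a fatty acid desaturase gene, and *Fgfr4* (0.961), a receptor gene of hepatocytes. *Epo* ran with *Myh14* (0.959), *Aqp11* (0.898) and *Pipox* (0.895), and *Epor* with *Slc25a38* (0.979), a mitochondrial carrier gene of heme synthesis, *Dmtn* (0.960), a red cell membrane gene, and *Mcm10* (0.960), a replication gene. *Angptl2* in LSECs ran with *Antxr1* (0.955), *Slc26a7* (0.947) and *Cdh11* (0.942), the latter a mesenchymal cadherin gene. *Cxcl12* ran with *Adal* (0.933), *Coil* (0.919) and *Arpin* (0.908), and *Kitl* with *Fut8* (0.971), *Chka* (0.969) and *Ipp* (0.965). *Kit* in non-EC cells ran with *Zfp493* (0.949), *Efcab7* (0.935) and *Slc18a2* (0.931), and *Cxcr4* with *Trim65* (0.942), *Arhgap45* (0.910) and *Pik3r6* (0.880). After the genotype means were subtracted, 2 of the 3 genes stayed among the leading 3 for *Cxcl12* and *Kit*, 1 for *Kitl*, *Epo*, *Cxcr4* and *Epor*, and 0 for *Thpo* and *Angptl2*.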

How the data were processed

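The authors trimmed repeated Gs from paired reads, used CLC Genomics Workbench (version not given in the sources used here) to align them to GRCm39 (mm39), and deposited TPM per gene for 24 libraries. TPM sum to the same total in every library, so depth is unknown and no counting interval could be given. The 8 columns of group means by the authors were not used. Replicate libraries of a group correlated at 0.962 to 0.993. limma 3.58.1 in R 4.3.3 was run on log2(TPM + 1) with a variance trend, in 1 model of 24 libraries for fractions and interactions and 1 of 12 libraries per fraction for genotypes, with p-values adjusted over all genes tested. *Il7* was tested by exact permutation. In simulated data at a log2 change of 1.5 the fraction test recovered 100% of 200 changed genes and the non-EC *Brg1-ECko* test 94%. The changed genes were drawn from levels above those of *Thpo*, *Epo* and *Cxcr4*, and the libraries were simulated as independent. These rates therefore do not give the recovery of those members or of smaller changes. Labels do not say what a replicate number stands for. The LSEC and non-EC libraries of the same genotype and number deviated together in 12 of 12 pairs (correlation 0.124 to 0.411), so they were treated as pairs in an alternative. By the naming rule, genes were drawn from the members and the 4 genes of each list with the largest fraction difference. It also covered list genes called in a genotype comparison, cognate receptors, the 3 genes most like each member and 4 example markers. Named outside this rule were *Flt3l*, *Bcl2l1*, *Adam10*, the list genes that did not pass the filter, the deleted genes and the markers *Reln*, *Mecom*, *Myb* and *Mcpt4*. Members and lists were chosen with earlier results of these data known. Alternatives covered the pseudocount, filter, scaling, variance trend, block, model, fold threshold and each library left out. Figures were drawn with matplotlib 3.10.9. A few genes of the pathway and marker lists entered the counts but are not reported here by name.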

Additional observations from a re-analysis of the deposited data

Results flagged for a closer look

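Differences of a genotype effect between LSECs and non-EC cells had an adjusted p under 0.05 in the limma interaction test for 4 results among the 72 pathway list genes tested, 3 of them also past the fold threshold, and for none of the members. Past both thresholds were 2 list genes in *Chd4-ECko* and 1 in *Brg1-ECko*, against 0.69% and 0.639% of all genes. The share of all genes at an adjusted p alone is not given here. The *Tfrc* effect of *Chd4-ECko* was 1.96 higher in LSECs than in non-EC cells on the log2 scale (limma adjusted p = 0.0317), where the non-EC change was -1.33. The *Ptpn6* effect of *Chd4-ECko* was 1.21 higher in LSECs (limma adjusted p = 0.0138). The *Mmp14* effect was lower in LSECs than in non-EC cells, by -0.96 in *Chd4-ECko* (limma adjusted p = 0.0286) and by -1.03 in *Brg1-ECko* (limma adjusted p = 0.0165), and *Mmp14* in non-EC cells had log2 fold changes of 0.66 and 0.72 in these mutants. The first of these is under the fold threshold, and the 2 *Mmp14* results share the control libraries. With 1 library left out, the list genes called by interaction in *Chd4-ECko* numbered 0 to 8 with the effect higher in LSECs (0 without LSEC Ctrl replicate 2, 6 without non-EC Ctrl replicate 2, 8 without non-EC *Chd4-ECko* replicate 1, and 1 in 6 other fits), against 2 as given. With the effect lower in *Brg1-ECko* they numbered 0 to 1, and 0 without LSEC *Brg1-ECko* replicate 1, non-EC Ctrl replicates 2 or 3 or non-EC *Brg1-ECko* replicate 1. Groups of 3 were not examined for single outlying libraries.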

How the results depend on the processing

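In non-EC cells 3 differences changed direction, none of them called, and no other recomputed member difference did. With a library left out *Kitl* ranged from -1.23 to 0.045 in *Chd4-ECko* (above 0 without non-EC *Chd4-ECko* replicate 3) and from -0.39 to 0.52 in *Brg1-ECko* (below 0 without non-EC Ctrl replicate 2 or non-EC *Brg1-ECko* replicates 1 or 3, and -0.0022 without mitochondrial and globin genes), and *Kit* from -0.30 to 0.0076 in *Brg1/Chd4-ECdko* (above 0 without its non-EC replicate 3). Over the 4 genotypes, *Cxcr4* was -1.09 under quantile normalization and thereby called, *Epo* was -0.95 without mitochondrial genes and -0.95 without mitochondrial and globin genes and no longer called, *Kitl* was 1.01 under both of these scalings and called, and leaving out each library gave -1.13 to -0.94 for *Epo*. The *Epo* call was lost without any one of LSEC Ctrl replicates 1 or 3, LSEC *Brg1-ECko* replicates 2 or 3, LSEC *Brg1/Chd4-ECdko* replicate 1, non-EC *Chd4-ECko* replicate 2, non-EC *Brg1-ECko* replicates 1 or 3, or non-EC *Brg1/Chd4-ECdko* replicates 1 or 2. Quantile normalization moved the median of all genes in this contrast to -0.14 and removal of mitochondrial genes to 0.24, and members moved by unequal amounts under quantile normalization (*Cxcl12* to 1.73, *Thpo* to -1.85). In controls *Cxcr4* was -1.22 and *Epo* -1.09 under quantile normalization, *Thpo* was -1.53 there and -1.89 with a pseudocount of 0.1 TPM, and leaving out a library gave -1.03 to -0.33 for *Cxcr4* and -1.08 to -0.91 for *Thpo*, both past the fold threshold without non-EC Ctrl replicate 2 and *Thpo* also without LSEC Ctrl replicate 2. *Il7* was -0.51 with that pseudocount. *Thpo* in *Brg1-ECko* non-EC cells was 0.97 under quantile normalization and 0.90 to 1.18 with a library left out. Members called lower numbered 2 over the 4 genotypes with a mean of at least 5 TPM required, a filter that *Thpo*, *Epo* and *Cxcr4* do not pass, and in controls 5 under quantile normalization, 4 without a fold threshold and 2 to 4 with a library left out. Members called higher in non-EC cells numbered 1 in *Chd4-ECko* with the pseudocount of 0.1 TPM or no fold threshold and 0 to 1 with a library left out (1 without non-EC *Chd4-ECko* replicate 2), 0 in *Brg1-ECko* under the filter at 5 TPM or quantile normalization and 0 to 2 with a library left out (2 without non-EC *Brg1-ECko* replicate 2, when *Epo* was called at 1.21), and 0 to 1 between *Brg1/Chd4-ECdko* and *Chd4-ECko* (1 without non-EC *Chd4-ECko* replicate 1). For the interaction the count with a library left out was 0 to 1 in *Chd4-ECko* (1 without its non-EC replicate 1) and 0 to 1 in *Brg1-ECko* (1 without its LSEC replicate 3). The replicate block by pair changed no member call (*Angptl2* stayed at 2.59). Same-numbered libraries of different genotypes correlated at over 0.1 in 13 of 18 LSEC and 9 of 18 non-EC comparisons. Their mean correlation was 0.167 in LSECs and 0.120 in non-EC cells, against -0.083 and -0.063 for libraries of other numbers. A number thus went with a shared deviation, which the main fits leave out. The alternative with a block by number left *Thpo* in *Brg1-ECko* non-EC cells called. Over the settings, all genes called between fractions ranged from 1587 to 5704 higher (2641 as reported) and 873 to 5678 lower (1355 as reported). In non-EC *Brg1-ECko* they ranged from 74 to 1089 higher (145) and 6 to 337 lower (22), in non-EC *Chd4-ECko* from 28 to 754 higher (53) and 3 to 949 lower (55), in LSEC *Chd4-ECko* from 27 to 145 higher (66) and in LSEC *Brg1/Chd4-ECdko* from 19 to 120 higher (66). Unknown depth limits what can be said of *Il7*, *Thpo* and *Epo*.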
